A study of Mus musculus with 51 samples.

Results

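The genes described here are 10 known brakes on cytokine signaling: the 7 suppressor of cytokine signaling genes Socs1 to Socs7, the related gene Cish, and the tyrosine phosphatase genes Ptpn2 and Ptpn6. They were selected by gene name and not by a threshold on measured values, and all 10 were present among the 40077 genes of the expression table. Over the comparisons between groups, their largest changes were in cultured Myc-CaP cells exposed to TAK-243, where Socs1 rose 10.2-fold, while 0 of the 10 passed the test in any of the 4 tumor comparisons.

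Cytokine receptors lack a kinase of their own and signal through bound JAK kinases, which phosphorylate STAT factors that enter the nucleus and switch on target genes. SOCS proteins are among those targets and close the loop: they bind phosphorylated receptors or JAKs through an SH2 domain, and their SOCS box recruits elongins and a cullin ubiquitin ligase that marks bound proteins for degradation. PTPN2 and PTPN6 remove phosphate from JAKs, STATs and receptors. UBA1, the enzyme altered in this study, activates ubiquitin at the first step of the chain that such ligases complete.

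The study asked how UBA1 in tumor cells bears on IFN signaling and anti-tumor immunity, and bulk RNA was sequenced from 35 subcutaneous tumors and 16 cultures. B16-BL6, a melanoma line, was grown in female C57BL/6 mice and Myc-CaP, a prostate cancer line with a Myc transgene, in male FVB mice. All mice were aged 6 to 8 weeks at the start. B16-BL6 gave 3 tumors from cells with a control guide RNA and 4 labelled sgUba1, and Myc-CaP gave 3 and 7. A further Myc-CaP experiment set 4 tumors with lentiviral Uba1 overexpression (OE) from a CMV promoter against 3 with the empty vector. Another set 5 tumors of mice given TAK-243, a small-molecule inhibitor of UBA1, at 25 mg/kg by repeated intravenous injection against 6 tumors of vehicle-treated mice. In culture, Myc-CaP cells with control or Uba1 guide RNA were kept without and with IFN-γ (1 ng/mL, 18 h), with 2 cultures for each of the 4 groups. In the other culture experiment untreated Myc-CaP cells, cells with TAK-243 (50 nM, 18 h), cells with IFN-γ (1 ng/mL, 18 h) and cells with both had 2 cultures each. The guide RNA lines were sublines derived from single cells, so a line may be 1 clone, and the labels do not say which subline or guide a tumor came from. Cells were injected into both flanks, so tumors may share a mouse, and the cultures are not stated to be separate experiments: p-values then measure only the spread between these samples, which may be technical.

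Total counts lay between 8652097 and 38032395 per library. Expression is given as CPM (counts divided by the effective size of the library, with TMM factors inside each experiment) when samples are compared, and as TPM (a scale that also corrects for gene length) when genes are compared. Summed melanoma markers lay between 10430 and 12219 CPM in B16-BL6 tumors and at most 32.5 CPM elsewhere. Summed prostate epithelial tumor markers lay between 1287 and 3657 CPM in Myc-CaP tumors and between 2607 and 4358 CPM in the cultures. In B16-BL6 tumors they lay between 0.629 and 1.53 CPM. Of that list, the epithelial marker Epcam had at most 3 counts in every Myc-CaP control tumor and control culture. The guide RNA lowered Uba1 in B16-BL6 tumors (208 to 247 CPM against 409.5 to 455) and in cultured cells (283 and 295 against 526 and 533 CPM), and the OE tumors had 631 to 747 against 278 to 310.4 CPM. Of the 7 Myc-CaP tumors labelled sgUba1, replicates 1 to 3 had 197, 202 and 210.5 CPM of Uba1 and replicates 4 to 7 had 373, 361, 368 and 383, above the 319.6 to 337 CPM of the 3 controls, so the label did not hold for the transcript in all of them. TAK-243 acts on the protein, so the level of Uba1 RNA does not check that treatment.

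Control of these genes has been traced to short elements near their starts: a GAS element (TTCNNNGAA) binds STAT dimers, and an ISRE binds STAT and IRF factors (its core was searched as GAAANNGAA). RefSeq promoter windows, from 250 bases before to 50 after a gene's start in GRCm38.p6, were matched for 5 members (Socs1, Socs3, Socs4, Cish and Ptpn6), and 3 are shown because they hold a match. Capitals mark the matches, found on both strands (the GAS letters read the same on each).
Socs1, chr16:10785487-10785786, minus strand: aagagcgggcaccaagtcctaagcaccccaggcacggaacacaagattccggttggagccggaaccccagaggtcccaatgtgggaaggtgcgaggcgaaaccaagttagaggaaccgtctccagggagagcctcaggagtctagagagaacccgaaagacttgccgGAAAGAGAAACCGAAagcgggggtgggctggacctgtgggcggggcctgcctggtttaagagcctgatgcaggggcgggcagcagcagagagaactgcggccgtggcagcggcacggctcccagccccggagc
Socs3, chr11:117969317-117969616, minus strand: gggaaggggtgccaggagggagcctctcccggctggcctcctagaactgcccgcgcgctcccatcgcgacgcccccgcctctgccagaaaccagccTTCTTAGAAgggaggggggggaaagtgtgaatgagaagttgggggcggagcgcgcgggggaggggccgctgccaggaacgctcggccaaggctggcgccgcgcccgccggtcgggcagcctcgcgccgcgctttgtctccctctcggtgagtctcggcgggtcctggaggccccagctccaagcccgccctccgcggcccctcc
Cish, chr9:107296409-107296708, plus strand: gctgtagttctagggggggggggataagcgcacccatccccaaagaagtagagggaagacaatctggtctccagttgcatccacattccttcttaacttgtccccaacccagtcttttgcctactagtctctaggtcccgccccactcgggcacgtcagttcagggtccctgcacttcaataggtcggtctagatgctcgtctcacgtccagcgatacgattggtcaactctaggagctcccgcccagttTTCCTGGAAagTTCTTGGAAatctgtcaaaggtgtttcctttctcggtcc
The Socs1 window holds 2 ISRE core matches that overlap each other, GAAAGAGAA at positions -83 to -75 and GAAACCGAA at positions -77 to -69, counted back from the start. The Socs3 window holds 1 GAS match, TTCTTAGAA, at positions -154 to -146, and the Cish window holds 2, TTCCTGGAA and TTCTTGGAA, at positions 1 to 9 and 12 to 20. Positions count from the start in the RefSeq windows. In GENCODE M21 the Socs3 and Cish windows lie inside the gene, whose outermost start is further upstream, and the end of the Socs3 window is in none of its transcripts. Of 32851 promoter windows of the same length, 8.3% hold the GAS letters and 8.56% the ISRE core letters, so these matches are descriptions and not shown binding sites.

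In GENCODE M21 on GRCm38, Socs1 (ENSMUSG00000038037.5) lies at chr16:10782240-10785536, Socs3 (ENSMUSG00000053113.3) at chr11:117966079-117970047 and Cish (ENSMUSG00000032578.7) at chr9:107296026-107302784, all protein-coding. Exons of Cish overlap an antisense gene and a pseudogene, Gm17041 and Gm17040, and exons of Ptpn6 (ENSMUSG00000004266.15, chr6:124720707-124738714) overlap the antisense gene Gm20531. Whether counting used strand is not stated in the sources used here, so reads of these overlaps cannot be told apart.

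In untreated Myc-CaP cells Socs2, which acts on the growth hormone receptor, stood highest of the 10 at 37.4 TPM (mean of 2 cultures), followed by Ptpn2 (32.1) and Socs5 (31.5), whose ranges overlapped, and Socs6 (27.7). Socs3 (18.1) and Socs4 (16.3) also overlapped. Socs7 (7.35), Cish (2.91), Socs1 (0.655) and Ptpn6 (0.363 TPM) closed the order. In vehicle-treated Myc-CaP tumors Socs2 led at 63.7 ± 14.1 TPM (SD, n = 6), above Socs6 (29.6) and Ptpn2 (28.5), whose ranges overlapped, and Socs1 was lowest at 0.614 ± 0.211 TPM. Between them Socs5, Socs3, Socs4, Socs7, Cish and Ptpn6 ran from 20.03 down to 11.1 TPM, each overlapping its neighbour in the order.

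B16-BL6 control tumors had a different order, with Ptpn6 at 46.3 ± 7.68 TPM (SD, n = 3) and Ptpn2 at 38.2 ± 1.4 on top, their ranges overlapping. Socs2 was at 2.54 ± 0.439, Cish at 1.21 ± 0.207 and Socs1 at 0.518 ± 0.222 TPM. Socs1 was thus the lowest of the 10 in both tumor models, and Socs2 was near the bottom in B16-BL6 and at the top in Myc-CaP. The models differ in line, strain, sex of the mice and experiment, and these levels were not tested against each other.

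**Figure D1:**
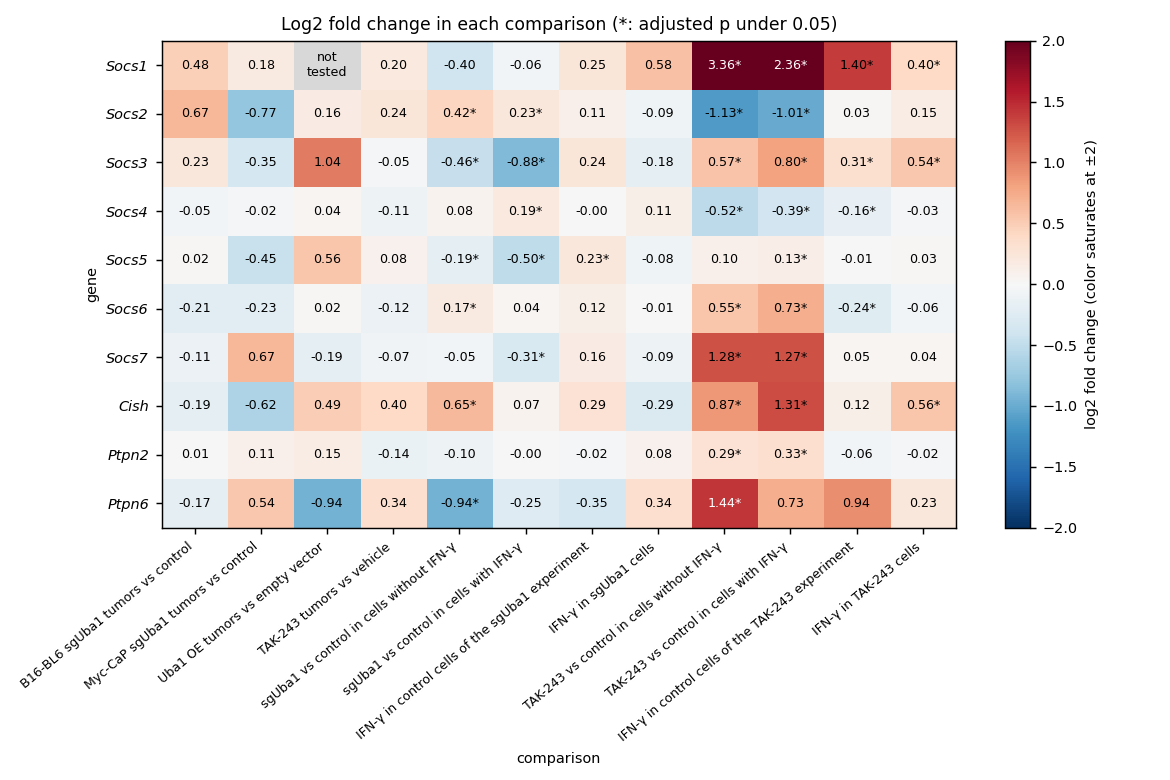
Log2 fold change of each of the 10 genes in each comparison, written in each cell and shown by color (red higher, blue lower, saturated beyond 2), with an asterisk where the adjusted p was under 0.05. Socs1 stands out in the TAK-243 comparisons of cells at 3.36 and 2.36, while in the tumors every gene lies between -0.94 and 1.04.

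TAK-243 raised most of these genes in cultured cells. Without IFN-γ, 9 of 10 passed the test (edgeR's quasi-likelihood test over all genes, Benjamini-Hochberg adjusted p under 0.05), 7 higher and 2 lower, where 66.3% of all genes tested did so. Their median log2 change was 0.56, against 0.03 over all genes, and their median change in either direction was 0.72 against 0.53. With IFN-γ in both arms, 9 of 10 again passed, 7 higher and 2 lower, where 68.2% of all genes did, and the median log2 change was 0.73.

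Socs1, which blocks JAK kinase activity and is best known for limiting IFN-γ responses, had the largest change of the 10. It stood at 1.085 and 1.31 CPM in the untreated cultures (17 and 21 counts) and at 12.1 and 12.7 CPM with TAK-243 (197 and 158 counts). The log2 change was 3.36 (SE 0.20, adjusted p = 2.08e-15). With IFN-γ, Socs1 was at 2.89 and 3.44 CPM in cells given the cytokine alone and at 15.97 and 16.7 CPM in cells given both, a log2 change of 2.36 (SE 0.16, adjusted p = 3.34e-14), or 5.14-fold. In both settings all values with the drug lay above all those without.

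Socs3, the main inhibitor of signaling through the IL-6 receptor chain gp130, was at 30.9 and 27.7 CPM untreated and 43.6 and 43.5 CPM with TAK-243. The log2 change was 0.57 (SE 0.08, adjusted p = 1.86e-07). With IFN-γ its values were 34.2 and 38.5 without and 63.4 and 63.6 CPM with the drug, and the log2 change was 0.80 (SE 0.07, adjusted p = 4.81e-11). Cish, a STAT5 target that binds receptors at STAT5 docking sites, went from 4.79 and 4.37 CPM to 9.14 and 7.46 CPM, a log2 change of 0.87 (SE 0.17, adjusted p = 3.16e-05). With IFN-γ it went from 4.86 and 5.10 to 11.9 and 12.8 CPM, and the log2 change was 1.31 (SE 0.15, adjusted p = 1.06e-08). The drug's values did not overlap the others in either gene, nor in any of the 10 members in either setting, called or not. The share of all genes without such overlap was not taken, so the lack of overlap does not set the members apart.

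Socs6 and Socs7 are close relatives that bind insulin receptor substrates more than cytokine receptors. Socs7 was at 35.2 and 34.5 CPM untreated and 84.2 and 84.7 with TAK-243, a log2 change of 1.28 (SE 0.06, adjusted p = 3.93e-17), and with IFN-γ the change was 1.27 (SE 0.06, adjusted p = 3.61e-17). Socs6 was at 35.8 and 32.3 CPM untreated and 47.7 and 52.2 with the drug, and the log2 changes were 0.55 (SE 0.08, adjusted p = 4.41e-07) without and 0.73 (SE 0.08, adjusted p = 3.24e-09) with IFN-γ. Both genes thus rose, Socs7 by more.

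Socs2 and Socs4 went the other way. Socs2 was at 50.4 CPM in both untreated cultures and at 23.2 and 22.9 CPM with TAK-243, a log2 change of -1.13 (SE 0.08, adjusted p = 3.11e-13), and with IFN-γ it changed by -1.01 (SE 0.08, adjusted p = 2.21e-12). Socs4, which like Socs5 has been tied to turnover of the EGF receptor, was at 71.8 and 79.6 CPM untreated and 50.2 and 56.1 CPM with the drug. Its log2 changes were -0.52 (SE 0.06, adjusted p = 2.66e-08) and, with IFN-γ, -0.39 (SE 0.06, adjusted p = 4.9e-06). Socs5 had 63.6 and 64.4 against 67.4 and 69.8 CPM, a log2 difference of 0.10 (SE 0.05, adjusted p = 0.117) that missed the threshold. With IFN-γ its difference of 0.13 (SE 0.05) passed at an adjusted p of 0.0357, a call that held in 1 of the 8 fits with a culture left out.

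Of the phosphatases, Ptpn2, which acts on JAK kinases, was at 32.0 and 34.2 CPM untreated and 39.3 and 42.0 CPM with TAK-243, and the log2 changes were 0.29 (SE 0.09, adjusted p = 0.00514) and, with IFN-γ, 0.33 (SE 0.09, adjusted p = 0.0018). The first call was lost without untreated replicate 1, without TAK-243 replicate 2 and on both TPM scales. The second was lost without IFN-γ replicate 1 (log2 difference 0.16, adjusted p = 0.145), and without IFN-γ replicate 2 its value was 0.53. Ptpn6, known chiefly from blood cells, had 6 and 10 counts in the untreated cultures and 26 and 14 with the drug. Its log2 change of 1.44 (SE 0.48, adjusted p = 0.00976) was not called without untreated replicate 1 or TAK-243 replicate 1, or by DESeq2. With IFN-γ its difference was 0.73 (SE 0.42, adjusted p = 0.123).

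Marker levels of other cell types also moved with the drug in these cultures. The summed pan-leukocyte markers were at 0.0624 and 0.192 CPM untreated and 0.307 and 0.401 with TAK-243. Of their 5 genes, 4 had no more than 3 counts in the drug-treated cultures. The summed macrophage markers went from 1.53 and 2.25 to 5.94 and 6.57 CPM. Of their 7 genes, 5 had no more than 3 counts in the drug-treated cultures, and Cd68 (1.69) and Csf1r (1.78) were called higher. The part of these shifts in the changes above was not tested.

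**Figure D2:**
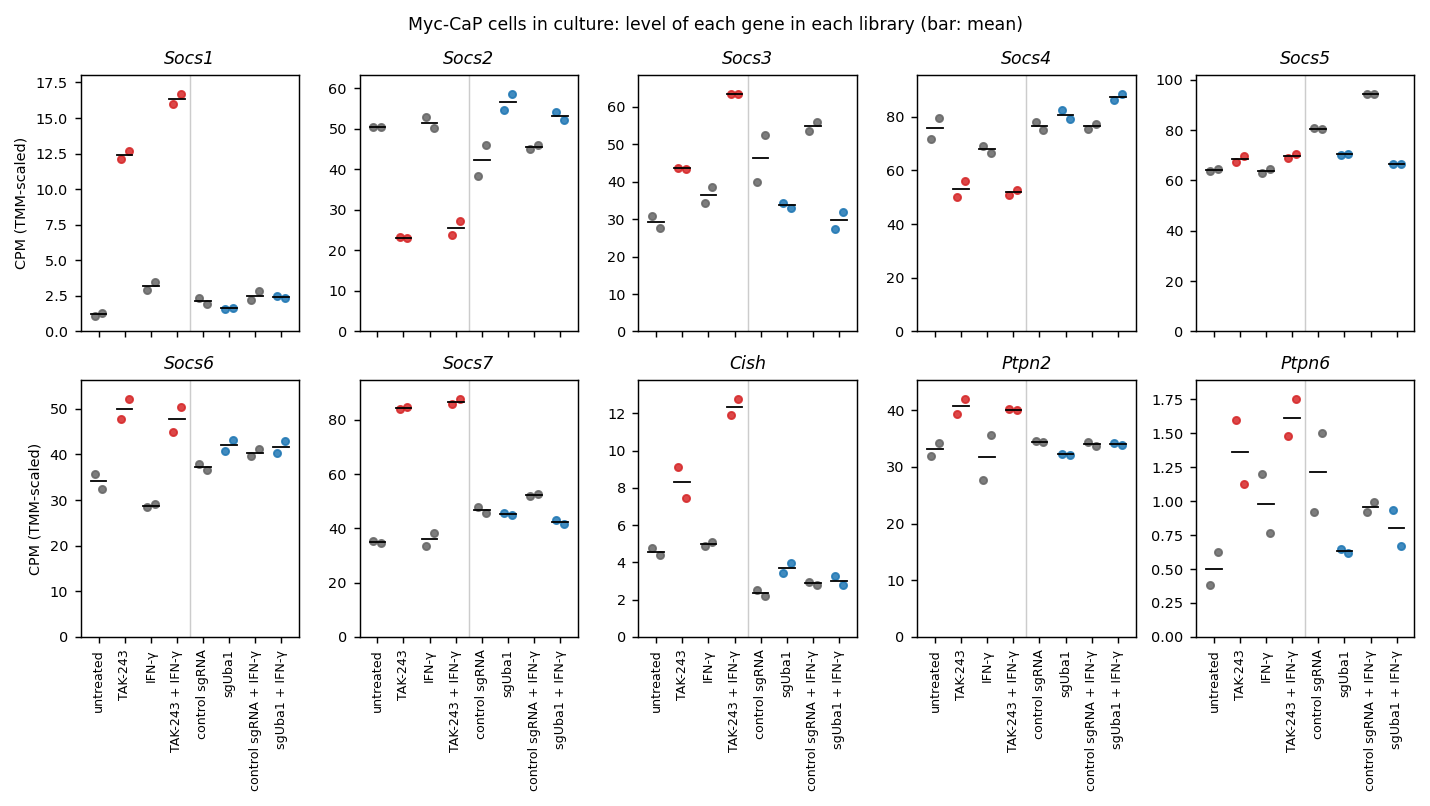
CPM of the 10 genes in each culture (points, with a bar at the mean) of the guide RNA and TAK-243 experiments, 2 cultures per group. Socs1 is between 12.1 and 16.7 CPM in the 4 cultures with TAK-243 and at most 3.44 CPM in the other 12.

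IFN-γ alone changed few of these genes, and the extent depended on the experiment. In the untreated cells of the drug experiment 4 of 10 passed the test, 2 higher and 2 lower, where 29% of all genes did. Socs1 rose by 1.399 on the log2 scale (SE 0.25, adjusted p = 8.62e-05) and Socs3 by 0.31 (SE 0.08, adjusted p = 0.00328), while Socs4 changed by -0.16 (SE 0.06, adjusted p = 0.0493) and Socs6 by -0.24 (SE 0.08, adjusted p = 0.0298). Only the Socs1 call held in every fit with a culture left out, and DESeq2 gave it no adjusted p. Without IFN-γ replicate 2, Socs1 was the single gene called, and without untreated replicate 2 or IFN-γ replicate 1 it was 1 of 2.

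In the control guide RNA cells IFN-γ gave 1 call among the 10, Socs5 at 0.23 (SE 0.04, adjusted p = 0.02), where 3.88% of all genes were called. The call held in 2 of 8 fits with a culture left out and was lost on both TPM scales and with at least 10 counts in every library. Socs5 was at 80.7 and 80.4 CPM without and 94.3 and 94.5 CPM with IFN-γ. Socs1 there was at 2.32 and 1.96 CPM without and 2.20 and 2.83 CPM with the cytokine, and these values overlap. The IFN-γ effect on Socs1 was larger in the untreated than in the control guide RNA cells by 1.17 on the log2 scale (SE 0.30, interval of 2 SE to each side 0.58 to 1.76, adjusted p = 0.0336). That was the single member among 10 for which this difference passed, where 3.79% of all genes did, in a fit of all 16 cultures chosen after seeing the data. The call was lost in 5 of the 16 fits with a culture left out: both untreated, both IFN-γ and IFN-γ-treated control guide RNA replicate 1 (adjusted p up to 0.152).

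In the sgUba1 cells IFN-γ gave 0 calls among the 10 by edgeR, where 2.85% of all genes were called. DESeq2 also gave 0 calls, with no adjusted p for 3 of the 10. At an unadjusted edgeR p under 0.05 there were 2 members (Socs1 and Socs4) and 3283 of the 15530 genes tested. The log2 difference of Socs1 was 0.58 (SE 0.20, adjusted p = 0.121). In TAK-243 cells IFN-γ raised 3 of 10, where 10.5% of all genes were called: Socs3 by 0.54 (SE 0.07, adjusted p = 5.29e-06), Cish by 0.56 (SE 0.14, adjusted p = 0.00927) and Socs1 by 0.40 (SE 0.12, adjusted p = 0.0331). Without TAK-243 replicate 2, or without replicate 2 of the cells given both, the Socs3 call was the single one left, and DESeq2 gave none of these 3 an adjusted p.

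Whether TAK-243 altered the effect of IFN-γ was tested as an interaction. By edgeR 0 of 10 passed, where 2.38% of all genes were called, and DESeq2 gave none of the 10 an adjusted p. At an unadjusted edgeR p under 0.05 there were 2 members (Socs1 and Socs3) and 2154 of the 14551 genes tested. The interaction of Socs1 was -0.995 on the log2 scale (SE 0.29, adjusted p = 0.059): IFN-γ raised it by 1.399 without the drug and 0.40 with it. For Cish the interaction was 0.44 (adjusted p = 0.387) and for Socs3 0.23 (adjusted p = 0.311).

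The sgUba1 cells had smaller changes. Without IFN-γ 6 of 10 passed, 3 higher and 3 lower, where 29.7% of all genes tested did, and the median change in either direction was 0.29 against 0.21 over all genes. Socs2 was at 38.3 and 46.1 CPM in the control guide RNA cells and 54.8 and 58.7 CPM in the sgUba1 cells, a log2 change of 0.42 (SE 0.08, adjusted p = 0.00171). Cish was at 2.54 and 2.19 against 3.44 and 3.95 CPM (log2 change 0.65, SE 0.17, adjusted p = 0.0148), and Socs6 at 37.9 and 36.6 against 40.8 and 43.3 CPM (0.17, SE 0.06, adjusted p = 0.0496). These 3 were higher. Values did not overlap in any of the 10 members here, called or not, so the lack of overlap does not set these 3 apart. Nor does it set the 10 apart from other genes, because the share of all genes without overlap was not taken.

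The 3 lower genes were Socs3, Socs5 and Ptpn6. Socs3 was at 40.03 and 52.5 CPM in control and 34.3 and 33.0 CPM in sgUba1 cells (log2 change -0.46, SE 0.11, adjusted p = 0.00815), and Socs5 at 80.7 and 80.4 against 70.2 and 70.6 CPM (-0.19, SE 0.04, adjusted p = 0.00426). Ptpn6 rested on 25 and 46 counts against 23 and 22, and its log2 change of -0.94 (SE 0.33) had an adjusted p just under 0.05. Socs1 was at 1.58 and 1.66 against 2.32 and 1.96 CPM, a log2 difference of -0.40 with an adjusted p of 0.183, and Socs4, Socs7 and Ptpn2 differed by 0.08, -0.05 and -0.10 and missed the threshold. Of the 6 calls 0 were kept under every alternative, and those of Socs6 and Ptpn6 held in only 1 of the 8 fits with a culture left out. Without control guide RNA replicate 2 the calls fell to 3 (Socs2, Socs3 and Socs5) and without sgUba1 replicate 2 to 2 (Socs2 and Socs5).

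With IFN-γ in both arms 5 of 10 passed, 2 higher and 3 lower, where 39.4% of all genes did. Socs3 was at 53.7 and 55.8 CPM in control and 27.5 and 31.9 CPM in sgUba1 cells (log2 change -0.88, SE 0.11, adjusted p = 7.95e-05). Socs5 was at 94.3 and 94.5 against 66.5 and 66.6 CPM (-0.50, SE 0.04, adjusted p = 4.32e-06), and Socs7 at 52.0 and 52.8 against 43.1 and 41.7 CPM (-0.31, SE 0.05, adjusted p = 0.00064). All 3 kept the call in every alternative tried.

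Socs4 was higher, at 86.3 and 88.6 against 75.6 and 77.2 CPM (0.19, SE 0.05, adjusted p = 0.00512), and so was Socs2, at 54.2 and 52.2 against 45.1 and 45.9 CPM (0.23, SE 0.08, adjusted p = 0.0358). The other 5 genes, Socs1 among them at -0.06, had differences between -0.25 (Ptpn6) and 0.07 (Cish) that missed the threshold. The sign of the Socs2 difference turned on the TPM scale. Without IFN-γ-treated control guide RNA replicate 1, Socs3, Socs5 and Socs7 were the 3 calls left. The interaction of sgUba1 with IFN-γ was called for 1 of 10, Socs5, at -0.31 (SE 0.06, adjusted p = 0.0207), where 4.64% of all genes were called, and this call held in 2 of the 8 fits with a culture left out.

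The drug and the guide RNA therefore gave opposite directions for several of the genes. Without IFN-γ, 5 members were called in both experiments and 3 of these had opposite signs (Socs2, Socs3 and Ptpn6), and with IFN-γ all 5 called in both had opposite signs (Socs2, Socs3, Socs4, Socs5 and Socs7), except that the sgUba1 difference of Socs2 took the sign of the drug on the TPM scales. Of these 5, the drug call of Socs5 held in 1 of 8 fits with a culture left out and that of Socs4 was lost on both TPM scales. The Ptpn6 calls without IFN-γ were also unstable, as given above. The share of opposite signs among all genes called in both experiments was not taken. These counts therefore describe the members and do not set them apart from other genes. In the fit of all 16 cultures, the TAK-243 effect differed from the sgUba1 effect for 9 of 10 members without IFN-γ, where 55.3% of all genes differed, and for 9 of 10 with it, where 56.7% did. The difference was 3.74 for Socs1 without IFN-γ (SE 0.27, adjusted p = 6.16e-10) and 2.41 with it (SE 0.23, adjusted p = 2.23e-08).

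For Socs2 the difference was -1.57 (SE 0.11, adjusted p = 3.76e-10) and for Socs3 1.01 (SE 0.14, adjusted p = 5.74e-06) without IFN-γ. With IFN-γ they were -1.25 (SE 0.11, adjusted p = 7.12e-09) and 1.67 (adjusted p = 3.42e-09). Cish rose in both experiments without IFN-γ, and there the difference between them was 0.20 with an interval of -0.25 to 0.66 (adjusted p = 0.483). The drug acted for 18 h on parental cells and the guide RNA lines were stable sublines from single cells, so the agent, its duration and the clone cannot be told apart in this difference.

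**Figure D3:**
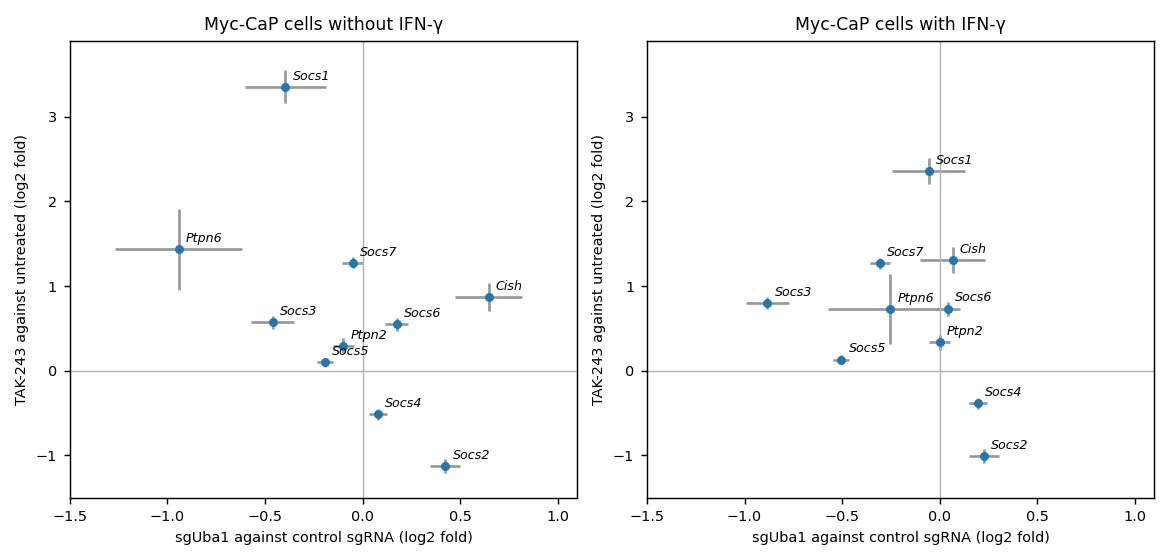
Log2 fold change of each of the 10 genes with TAK-243 against its log2 fold change with sgUba1 in cultured Myc-CaP cells, without and with IFN-γ, with error bars of 1 SE. Socs2 lies below 0 on the drug axis and above 0 on the guide axis (with IFN-γ its guide RNA sign turns on the TPM scales), and Socs3 the reverse.

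In the tumors 0 of 10 genes passed the test in each of the 4 comparisons by edgeR. The share of all genes called was 0.724% for B16-BL6 tumors labelled sgUba1, 3.04% for Myc-CaP tumors labelled sgUba1, 0.0269% for OE and 0.145% for TAK-243 tumors. At an unadjusted p under 0.05 there were 2, 3, 3 and 0 of the 10. Over all genes tested this held for 2861 of 17539, 3835 of 16202, 2698 of 14853 and 2587 of 17299, so these counts do not set the members apart. Of the 10, DESeq2 called 0, 2, 1 and 0. In bulk tumors, fewer cells of a type and less RNA per cell cannot be told apart.

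In B16-BL6, Socs2 was at 2.78, 2.89 and 3.51 CPM in the controls and at 3.74, 6.72, 4.76 and 4.20 in the sgUba1 tumors. All 4 lay above the 3 controls, and the log2 difference was 0.67 (SE 0.21, adjusted p = 0.184). Socs6, the other gene under an unadjusted p of 0.05, differed by -0.21 (SE 0.09, adjusted p = 0.276), with overlapping values of 52.7 to 59.9 and 43.7 to 55.2 CPM. Socs3 spread from 15.7 to 36.8 CPM among the sgUba1 tumors and from 18.7 to 21.6 CPM among the controls. The log2 differences of the other 7 genes lay between -0.19 (Cish) and 0.48 (Socs1).

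In Myc-CaP tumors labelled sgUba1, Ptpn6 was at 16.1, 12.1 and 11.3 CPM in the controls and between 16.1 and 20.7 (median 19.5) in the 7 others, a log2 difference of 0.54 (SE 0.14, adjusted p = 0.062). DESeq2 called it (adjusted p = 0.00807), and so did edgeR without control replicate 1 or without sgUba1 replicate 2. Socs2 was at 47.3, 106.8 and 82.6 CPM in the controls and between 28.7 and 58.2 (median 46.2) in the others, a log2 difference of -0.77 (SE 0.24, adjusted p = 0.1) with overlap. It too was called by DESeq2 and without control replicate 1.

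The 7 tumors were uneven in several of the genes. Socs7 was at 66.3, 63.2 and 70.5 CPM in replicates 1 to 3 and at 123, 116, 133 and 119.7 in replicates 4 to 7, against 71.5, 53.8 and 61.7 in the controls, and its log2 difference of 0.67 (SE 0.27) had an adjusted p of 0.167. Socs6 was at 42.9, 45.3 and 42.3 CPM in replicates 1 to 3 and at 25.8, 24.3, 30.3 and 28.4 CPM in replicates 4 to 7. Replicates 1 to 3 are the tumors in which Uba1 RNA was below the controls. The labels do not set these tumors apart, and no test was made between them.

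Socs1 had 4 to 44 counts in those 7 tumors, with 3.52 CPM in replicate 3 and 0.287 to 1.95 CPM in the rest, against 0.884 to 1.12 CPM in the controls. Its log2 difference was 0.18 (SE 0.70, adjusted p = 0.908), with an interval of 2 SE to each side from -1.23 to 1.59. Cish was at 12.5, 34.7 and 20.02 CPM in the controls and between 8.36 and 20.6 in the others (-0.62, adjusted p = 0.331), and Socs3 spread from 12.2 to 55.8 CPM in the others. Socs3, Socs4, Socs5 and Ptpn2 had log2 differences of -0.35, -0.02, -0.45 and 0.11, none of them called.

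With Uba1 overexpression, Socs3 was at 13.7, 13.8 and 14.8 CPM in the empty-vector tumors and at 34.7, 29.5, 30.6 and 20.99 CPM in the OE tumors. The groups do not overlap, and the log2 difference was 1.04 (SE 0.17) with an adjusted p of 0.118. It was called by DESeq2 (adjusted p = 7.12e-05) and by edgeR without OE replicate 1 or without OE replicate 4. Socs5 was at 25.6, 26.4 and 24.3 against 50.3, 36.5, 34.8 and 27.9 CPM, without overlap (0.56, SE 0.19, adjusted p = 0.192). Markers of other cells differed among these tumors. Summed skeletal muscle markers were at 542 and 120 CPM in OE replicates 1 and 2, at 4.89 and 5.25 in replicates 3 and 4 and at 4.81 to 6.98 CPM with the empty vector. Summed T and NK cell markers were at 4.86 to 10.7 CPM in OE and 15.97 to 22.1 in empty-vector tumors. The same T and NK cell sum was at 2.10 to 7.71 CPM in the cultures. Of its 8 genes, 5 had no more than 3 counts in every OE tumor and 3 in every empty-vector tumor. The part of muscle content or of T and NK cell content in the Socs3 and Socs5 differences was not tested.

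Ptpn6 was at 11.9, 13.7 and 15.2 CPM in empty-vector and 3.27, 6.43, 8.89 and 9.75 CPM in OE tumors, again without overlap (log2 difference -0.94, SE 0.32, adjusted p = 0.197). Socs7 had 65.5 to 78.1 against 61.7 to 63.3 CPM (-0.19, SE 0.09, adjusted p = 0.291). Socs2, Socs4, Socs6, Cish and Ptpn2 had log2 differences between 0.02 (Socs6) and 0.49 (Cish) that missed the threshold. Socs1, with 5 to 19 counts per tumor, was removed by the filter on low counts in that experiment and was not tested.

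In tumors of TAK-243-treated mice every difference was at most 0.40 on the log2 scale. Socs1, which rose 10.2-fold in culture, was at 1.28, 1.16, 1.37, 1.42 and 1.21 CPM with TAK-243 and between 0.685 and 1.78 (median 1.03) with vehicle, a log2 difference of 0.20 (SE 0.21, adjusted p = 0.68). Cish was at 31.4, 26.7, 26.9, 36.6 and 27.1 CPM against 12.8 to 35.5 with vehicle (0.40, SE 0.23, adjusted p = 0.441). Socs2, which fell in culture, was at 67.0 to 97.3 against 61.1 to 89.0 CPM (0.24, SE 0.14, adjusted p = 0.442). The values of both groups overlapped in all 3 genes, and the log2 differences of the other 7 lay between -0.14 (Ptpn2) and 0.34 (Ptpn6). Summed neutrophil markers were at 18.5 to 31.5 CPM in these tumors and 7.91 to 12.4 CPM with vehicle, with Retnlg, S100a8 and S100a9 called higher, and their part in these values was not tested.

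**Figure D4:**
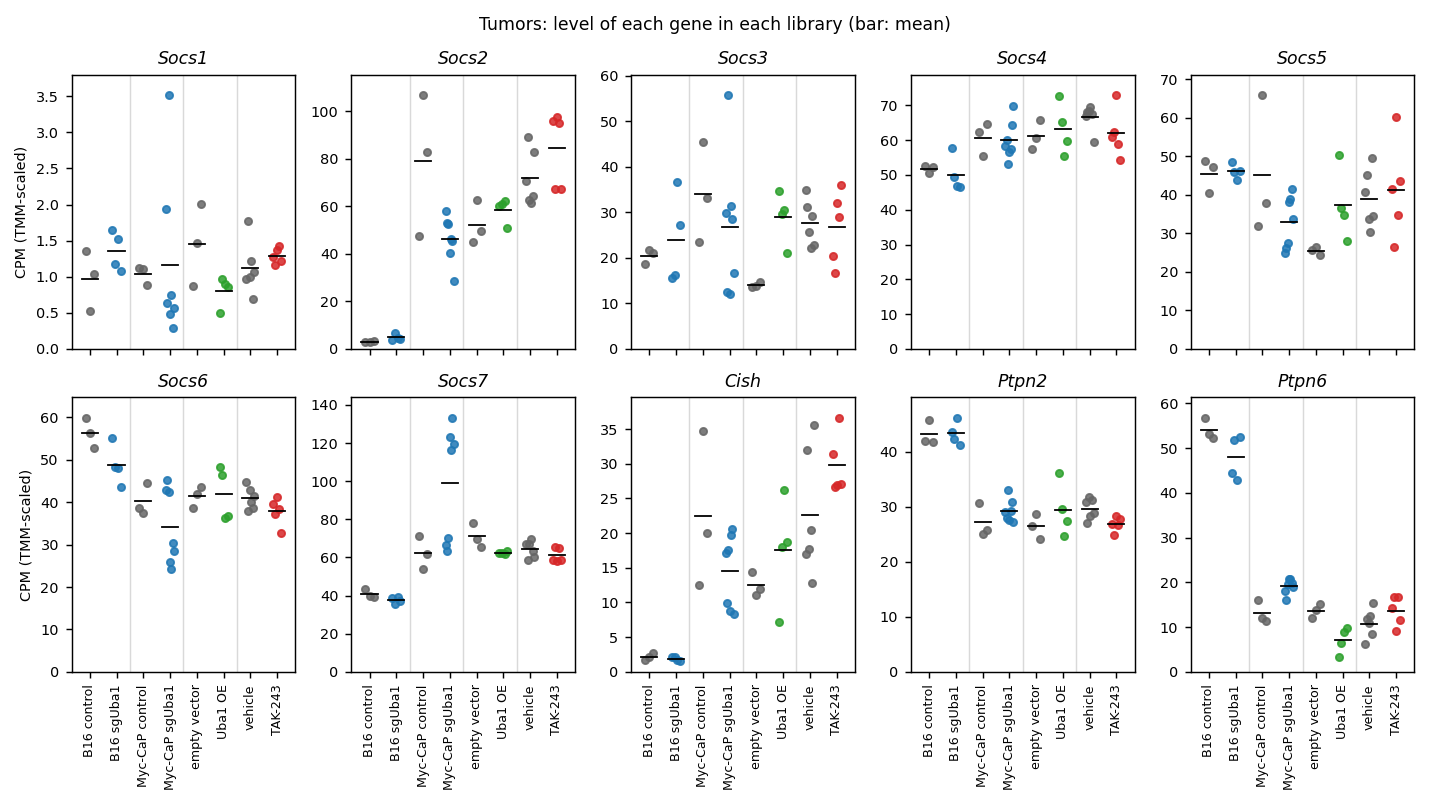
CPM of the 10 genes in each of the 35 tumors (points, with a bar at the mean) by group and experiment. The 4 OE tumors lie above the 3 empty-vector tumors in Socs3, and the 7 Myc-CaP tumors labelled sgUba1 spread from 63.2 to 133 CPM in Socs7.

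Of the 10 genes, Ptpn6 had the largest pooled correlation with leukocyte markers. Over the 35 tumors, with the mean of each of the 8 groups removed, its log2 CPM had a Pearson r of 0.828 with the summed pan-leukocyte markers and a Spearman rho of 0.719 (permutation test within groups, p = 1e-05 for both, the smallest that 100000 permutations can give; adjusted over 10 genes p = 0.0001). Without the 2 tumors farthest from the median, r was 0.721. Within experiments r was 0.98 in OE and empty-vector tumors (n = 7), 0.907 in TAK-243 and vehicle tumors (n = 11), 0.647 in the Myc-CaP guide RNA tumors (n = 10) and -0.353 in B16-BL6 (n = 7), so the relation did not hold in B16-BL6. The other 9 genes had r between -0.505 (Socs5) and 0.394 (Socs7). Of them 3 passed the same test of r: Socs7 (adjusted p = 0.0119), Socs6 (r = -0.451, adjusted p = 0.0238) and Socs5 (adjusted p = 0.0338). By the permutation test of rho, Socs3, Socs6 and Socs7 passed (adjusted p = 0.0392 for each) and Socs5 did not (adjusted p = 0.0673). These tests treat the tumors of a group as exchangeable, while the Myc-CaP tumors labelled sgUba1 were uneven in Socs6 and Socs7. Within single experiments others reached similar size, with Cish at 0.908 and Socs5 at -0.929 in the OE experiment. Socs7 was at 0.855 in the Myc-CaP guide RNA tumors, but at -0.19 in B16-BL6, -0.0361 in the OE and 0.318 in the TAK-243 experiment.

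The leukocyte sum also differed between groups. It was 165, 81.7 and 136 CPM in the Myc-CaP guide controls and between 148 and 274 (median 232) in the 7 tumors labelled sgUba1, where the leukocyte gene Ptprc itself was called higher (1.06, adjusted p = 0.0459). Of the macrophage markers Adgre1 (1.15), C1qa (0.82) and Cd68 (0.83) were also called higher there. It was 133, 157 and 145 CPM in empty-vector and 29.7, 88.3, 118 and 131 CPM in OE tumors. In cultured cells the same sum was at most 0.563 CPM. In B16-BL6 the leukocyte sum was 22.2 to 40.7 CPM in control and 41.5 to 48.8 CPM in sgUba1 tumors. It was lower there than in all but 1 of the Myc-CaP tumors. Ptpn6 went the other way, at 52.2 to 56.8 CPM in control and 43.0 to 52.5 CPM in sgUba1 tumors, with overlap. The part of leukocyte content in the Ptpn6 differences was not tested.

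**Figure D5:**
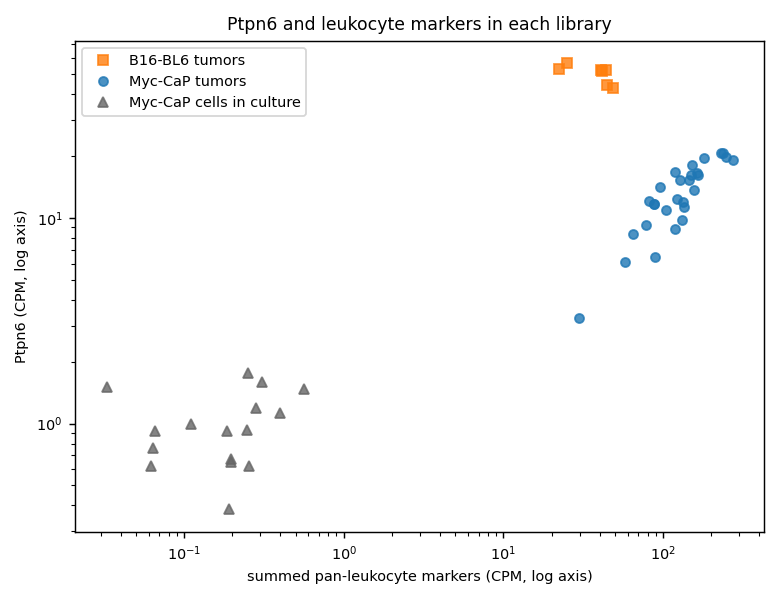
Ptpn6 (CPM, log axis) against the summed pan-leukocyte markers (CPM, log axis) in each library (squares B16-BL6 tumors, circles Myc-CaP tumors, triangles cultures). Myc-CaP tumors rise together on both axes, the 7 B16-BL6 tumors lie above them, and cultured cells sit at the lower left, at or below 0.563 CPM of the markers.

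Other genes of the pathway were also measured in the cultured cells. With TAK-243 and no IFN-γ, Stat3 was higher at 0.32 (SE 0.09, adjusted p = 0.00153), and of 3 JAK genes Jak1 was higher at 1.51 and Jak2 lower at -0.54. Receptors split 4 higher and 4 lower of 12, a share near the 66.3% of all genes called in that comparison, with the prolactin receptor Prlr at -2.49 and Ifngr2, a chain of the IFN-γ receptor, at 1.11.

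In the same comparison, where 66.3% of all genes were called, other inhibitors were 6 higher and 3 lower of 10 with TAK-243. They were led by the phosphatase gene Dusp1 at 2.80. Genes of the SOCS box ligase were 5 higher and 1 lower of 7, with the elongin gene Eloc at 0.40 (SE 0.05, adjusted p = 1.49e-07). STAT3 targets were 3 higher and 1 lower of 7, with Junb at 1.87, Il4ra at 1.90, Pim1 at 0.83 and Myc at -2.64. STAT5 targets were 3 higher and 1 lower of 5, with Bcl6 at 1.92, Pim1 as above, Igf1 also higher and Bcl2l1 at -0.62.

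In sgUba1 cells without IFN-γ, where 29.7% of all genes were called, 3 of 7 STAT3 targets were lower (Pim1 at -0.58, Bcl3 at -0.64 and Junb at -0.56) and 0 higher. With IFN-γ, where 39.4% of all genes were called and 3486 of the 6119 calls were lower, STAT3 targets were 4 lower and 0 higher of 7 and STAT5 targets 3 lower and 0 higher of 5, with Bcl2l1 at -0.83. Socs1 was then at 2.49 and 2.37 CPM in sgUba1 and 2.20 and 2.83 CPM in control cells, values that overlap.

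Across the 35 tumors, with group means removed, the genes whose log2 CPM was most like that of 4 members among 13872 genes were listed, as a description over 8 groups that share depth and cell content. For Socs3 these were Cd14 (r = 0.78), Gm48275, Il33, Gm11110 and Tap2 (0.71). For Ptpn6 they were Itm2b (0.87), Itm2c, F8, Cpne5 and Atp6v0a1 (0.83). For Cish they were Fcgrt (0.76), Sec22a, Phkb, Scarf2 and Mxd1 (0.74), and for Socs1, at low counts, Spn (0.83), Il11ra1, Six5, Cntnap1 and Slc15a2 (0.78).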

How the data were processed

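The 35 tumors and 16 cultures were grouped by their labels alone. The authors deposited TPM and, for each gene, expected counts (estimates that need not be whole). Per the submitters' processing notes the tools were kallisto and the build mm10, without a version. The annotation is not given in the sources used here, and 39142 of 40077 gene identifiers (97.7%) matched GENCODE M21 with their version. Library preparation is described as ribosomal RNA depletion in the paper and as poly-A capture in the labels. Of the expected counts 31.9% were not whole. Counts of reads had been assumed in the design, so they were rounded.

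Calculations used R 4.3.3. Each tumor experiment was fitted alone, and the 8 libraries of each culture experiment together, with edgeR 4.0.16: filterByExpr, TMM factors, the quasi-likelihood test and Benjamini-Hochberg adjustment over all genes tested, at 0.05. A fit of all 16 cultures was added after seeing the data. Intervals are 2 standard errors to each side. Alternatives were DESeq2 1.42.0, RLE factors, no filter, at least 10 counts in every library, limma 3.58.1 on log2(TPM + 1) and log2(TPM + 0.1), a replicate block and each library left out. The scripts were tested on simulated data.

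The members, the pathway and marker lists and the tests were chosen with earlier results of these data known. All 10 members and Uba1 are named. Of a pathway or marker list, the rule was to name genes past the threshold where there were 5 or fewer, otherwise the 4 with the smallest adjusted p, and the text gives a selection of these. The 5 most similar genes are named for Socs1, Socs3, Cish and Ptpn6, among genes with a mean log2 CPM of at least 1. Some pathway and marker genes and 1 list of targets are not reported here.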

Additional observations from a re-analysis of the deposited data

Results flagged for a closer look

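Over 50 combinations of a member and a tumor group of 4 to 10 tumors, 2 held a tumor set apart from the others of its group by Dixon's test, where chance sets apart about 1 in 20. Socs2 was at 50.86 CPM in Uba1 OE replicate 4, with the other 3 OE tumors between 60.08 and 62.11 CPM. Socs4 was at 59.6 CPM in vehicle replicate 6, with the other 5 vehicle tumors between 66.95 and 69.42 CPM. Neither gene was called in its comparison.

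For 2 members an effect differed between groups by a test of the difference itself. The effect of IFN-γ on Socs5 was smaller in sgUba1 than in control guide RNA cells by an interaction of -0.31 on the log2 scale (edgeR, adjusted p = 0.0207), a call held in 2 of the 8 fits with a culture left out. The effect of IFN-γ on Socs1 was larger in untreated than in control guide RNA Myc-CaP cells by 1.17 (edgeR, adjusted p = 0.0336), a call lost in 5 of the 16 fits with a culture left out. The cause of either difference was not tested.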

How the results depend on the processing

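Of 57 calls of members over the 17 comparisons, 32 were kept under every alternative and 25 were lost under 1 or more. The members called with TAK-243 in cells stayed between 7 and 9 without and with IFN-γ when a library was left out. Leaving out each library in turn gave 0 to 2 members called in Myc-CaP tumors labelled sgUba1, 0 to 1 in OE tumors, 2 to 6 in sgUba1 cells without IFN-γ and 3 to 5 with it. For IFN-γ alone it gave 0 to 3 in control guide RNA cells, 0 to 1 in sgUba1 cells, 1 to 4 in untreated cells and 1 to 3 in TAK-243 cells. It gave 0 to 4 for the interaction of sgUba1 and IFN-γ, and 0 to 3 for the difference of the IFN-γ effect between untreated and control guide RNA cells.

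DESeq2 called 2 members in the Myc-CaP tumors labelled sgUba1, 1 in OE tumors and 3 in sgUba1 cells without IFN-γ. For IFN-γ it called 1 in untreated cells, where 3 members had no adjusted p, and 0 in TAK-243 cells, where 7 had none, including all 3 that edgeR called. On both TPM scales 0 members were called in sgUba1 cells without IFN-γ and 3 with it, where Socs2 had the opposite sign at -0.0321 and -0.0329 with the larger and the smaller pseudocount. Also on both, 0 were called for IFN-γ in control guide RNA cells and in TAK-243 cells and for the interaction of sgUba1 and IFN-γ. Without a filter 2 were called for IFN-γ in control guide RNA cells and 2 for that interaction, and with at least 10 counts in every library 0 and 0. The difference of the IFN-γ effect gave 3 with RLE factors, 2 without a filter and 2 with at least 10 counts. The cause of these shifts was not tested.

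Over all genes, DESeq2 called 1804 against 492 in the Myc-CaP tumors labelled sgUba1, 706 against 4 in OE tumors, 528 against 127 in B16-BL6 tumors and 542 against 25 in TAK-243 tumors. Few same-numbered tumors correlated above 0.1. They were 1 of 3 pairs in B16-BL6, 0 of 3 in the Myc-CaP guide RNA tumors and in the OE experiment, and 1 of 5 in the TAK-243 tumors. In the cultures it was 4 of 12 pairs of guide RNA cells (r from -0.0117 to 0.157) and 0 of 12 of TAK-243 cells (0.00838 to 0.0301). There each r recurs in another same-numbered pair, and with opposite sign in different-numbered pairs. The culture pairs are therefore not separate values, and whether replicate numbers pair the cultures cannot be decided from them. A replicate block called 1 member for the interaction of TAK-243 and IFN-γ (Socs1), where the fit without it called 0, and 5 in sgUba1 cells without IFN-γ. Depth limits Socs1, with at most 55 counts in any tumor, and Ptpn6, with at most 46 in any culture.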
